A study of Rattus norvegicus with 3 samples.

Results

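The genes described here encode the protein complexes of the mitochondrial respiratory chain and of ATP synthase, measured in cultured rat heart muscle cells kept in 3 different media. They were chosen by symbol alone. A probe set (a group of short probes read together as 1 measurement) was taken when the platform annotation gave it a single symbol that begins with Nduf, Uqcr, Cox4, Cox5, Cox6, Cox7, Cox8 or Atp5, or that is Sdha, Sdhb, Sdhc, Sdhd, Cyc1 or Cycs. This gave 97 probe sets for 87 genes, out of 20832 singly named probe sets for 14218 genes. Of the 87 genes, 77 encode subunits of complexes I to V. The other 10 share only the prefix: 6 complex I assembly factors (Ndufaf genes), the ATPase inhibitor gene Atp5if1, the supercomplex factor Cox7a2l, the Ndufa4 paralogue Ndufa4l2 and the pseudogene Cox6c-ps1. Cycs, the cytochrome c gene, had no singly named probe set.

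The cells were cardiomyocytes obtained from fetal Wistar rats by enzyme digestion, plated for 48 hours and then given a medium for 24 hours. The control culture received fresh culture medium. The second received medium conditioned by skeletal myoblasts and the third medium conditioned by cardiac fibroblasts, and each culture was hybridised to 1 Affymetrix array. No condition has a replicate, so the differences carry no standard error and no test, and precision is limited by having 3 arrays in all. The labels do not say how many fetuses went into a culture.

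Deposited values were read as log2 values centred on each probe set's median over the 3 arrays. The centring was read from the values and the log base from the submitters' naming of RMA, which gives log2 values, and the folds given here rest on that base. A value of 0.00 usually marks the array in the middle, and the absolute level of a gene is not known. A difference of 1 between arrays is 2-fold, and 1.5-fold is a log2 difference of 0.58. Whether cardiomyocyte markers were strongly expressed cannot be read from centred values. For 45 probe sets of bacterial and phage control transcripts, the median difference from control was 0.28 with myoblast medium and 0.08 with fibroblast medium, and myoblast medium stood 0.18 above fibroblast medium. Their largest differences in size were 0.66, 0.68 and 1.02. Most differences of the respiratory genes are smaller than these largest values. The account below therefore gives how many genes lay on one side, beside the values of single genes. Genes on the same arrays are not replicates, and an offset of 1 array could move them to one side together.

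The respiratory chain passes electrons from NADH (complex I) and succinate (complex II) through coenzyme Q to complex III, by cytochrome c to complex IV (cytochrome oxidase), and finally to oxygen. Complexes I, III and IV pump protons, and ATP synthase (complex V) uses the return flow of protons to make ATP. Heart muscle depends on this pathway for most of its ATP and is packed with mitochondria. Most subunits are encoded in the nucleus and a few in mitochondrial DNA, and heart and skeletal muscle use special isoforms of some cytochrome oxidase subunits.

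Respiratory chain and ATP synthase genes were lower in fibroblast-conditioned medium than in control almost throughout, by a small amount each. Of 87 genes, 79 were below 0 (90.8%), against 43.1% of all named genes, and 6 were above 0, against 41.0%. The median was -0.29 (1.22-fold), against 0.00 over all named genes. At least 1.2-fold lower (a log2 difference of 0.26) were 51 of 87 (58.6%), against 17.5% of all genes, and 0 were 1.2-fold higher, against 19.4%. At least 1.5-fold lower were 10 of 87 (11.5%), against 6.97%, and 0 were 1.5-fold higher, against 9.09%. With arrays centred on the median of their values, the count at least 1.5-fold lower was 6. No gene of the group reached 2-fold in either direction, which 6.85% of all genes did. The share at least 1.2-fold lower thus stood far above the background and the share at least 1.5-fold lower closer to it.

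Under myoblast-conditioned medium the same genes lay close to control and slightly below it. Of 87 genes, 67 were below 0 (77.0%), against 40.2% of all named genes, with a median of -0.07, and 20 were above 0, against 39.0%. At least 1.2-fold lower were 3 of 87, against 11.0%, and 4 were 1.2-fold higher, against 12.3%. Cox8b was at least 1.5-fold lower, against 2.86% of all genes, and 0 of 87 were 1.5-fold higher, against 3.77%. None reached 2-fold, which 2.19% of all genes did. The median is smaller in size than that of the added control transcripts, which had the opposite sign. Whether an offset of 1 array contributed was not tested.

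Between the conditioned media, the genes were higher with myoblast medium. In this comparison, which shares both its arrays with the previous comparisons, 78 of 87 were above 0, against 44.9% of all genes, and 8 were below 0, against 39.3%, with a median of 0.20. At least 1.2-fold higher were 31 (35.6%), against 18.5%, and 0 were 1.2-fold lower, against 17.6%. At least 1.5-fold higher were 4 (4.60%), below the 6.65% of all genes, and 0 were 1.5-fold lower, against 8.34%. None reached 2-fold, which 6.06% of all genes did. The added control transcripts had a median of 0.18 in the same direction, close to that of the group, and 11 of their 45 probe sets passed 1.5-fold. Whether an offset of 1 array contributed to the group's differences was not tested. By array, control held the highest value for 65 of the 87 genes (74.7%), against 25.1% of all genes, and the fibroblast array the lowest for 73 (83.9%), against 34.3%.

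Every probe set had no value on at least 1 array. Many elsewhere on the array had none on 2 or all 3, which raises the number of ties. Values on 2 arrays were present for 89.7% of the probe sets of this group and for 55.0% of all; of the other probe sets of the group, 8 had a value on 1 array and 2 on none. With probe sets limited to those with 2 values, which was decided once the values were known, 79 of 83 genes of the group lay below 0 under fibroblast medium (95.2%), against 50.5% of 9836 genes. At least 1.2-fold lower were 62.7%, against 26.5%. At least 1.5-fold lower were 13.3%, against 11.3%, so at that size the share was near the background.

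**Figure D1:**
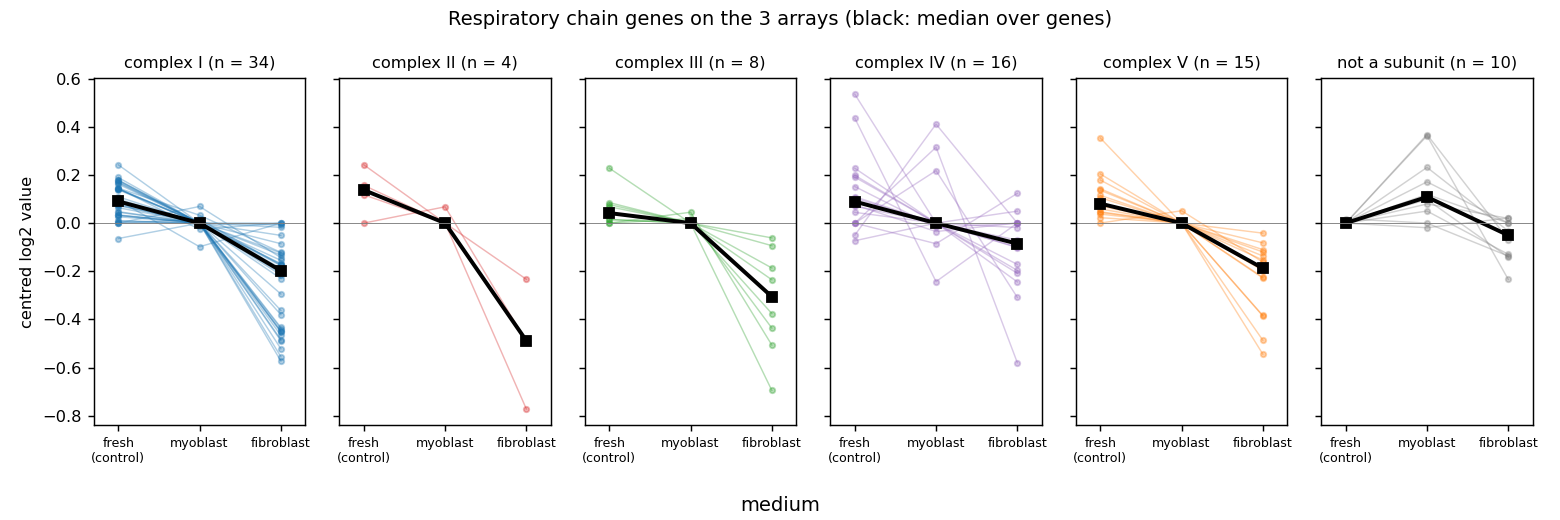
Centred log2 value (vertical axis) of every gene on the control, myoblast medium and fibroblast medium arrays (horizontal axis), 1 panel per complex, with thin lines for genes and black squares for the median over genes. In each of the 5 complexes the median was highest on the control array and lowest on the fibroblast array; the 10 genes that are no subunit had their highest median on the myoblast array.

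Promoter windows were searched because the factors NRF1, GABPA (of the ETS family), the estrogen-related receptors (ERR) and YY1 are textbook regulators of nuclear genes for mitochondrial proteins. RefSeq promoter windows of 300 bases (250 before and 50 after a gene's start, assembly GRCr8) were found for 78 of the 87 genes, 69 of them subunit genes. Both strands were searched for CGCATGCG (NRF1), CCGGAAGT (ETS), TCAAGGTCA (ERR) and AAGATGGCG (YY1). At least 1 of the 4 was present for 24 of 69 subunit genes (34.8%), against 7.95% of all 27457 genes with a window. The windows of subunit genes held a median of 20 CG dinucleotides and all windows a median of 7. Among 7434 genes with a window of at least 20 CG dinucleotides, 16.0% held at least 1 of the 4. Those windows held a median of 28, above that of subunit genes, so the sets are not matched on CG content. Singly, YY1 letters were present for 14.5% of subunit genes against 1.99% of all, ETS letters for 11.6% against 4.20%, NRF1 letters for 8.70% against 1.86% and ERR letters for 2.90% against 0.44%. Among the genes with a CG-rich window the shares were 3.93% for YY1, 8.60% for ETS, 4.68% for NRF1 and 0.16% for ERR, so the ETS share of subunit genes stood near that of CG-rich windows. Among all windows of plus-strand genes, YY1 letters were present forward in 198 and in reverse in 82. Among those of minus-strand genes the counts were 211 and 91. The YY1 letters contain ATG, so a match after a gene's start can overlap a start codon, which was not examined. A match is a description of the letters and not evidence that a factor binds there.

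For each of the 4 motifs, the window of the subunit gene with the lowest difference between fibroblast medium and control that holds it is printed on the gene's own strand, with the matches in capitals. Sdhd (difference -0.73) lies on the minus strand, window chr8:59850592-59850891, and holds the ERR letters in reverse. Atp5f1a (-0.63) lies on the plus strand, window chr18:73567287-73567586, and holds the ETS letters in reverse. Ndufs7 (-0.52) lies on the minus strand, window chr7:10110449-10110748, and holds the YY1 letters. Uqcrc1 (-0.44) lies on the plus strand, window chr8:118467973-118468272, and holds both the NRF1 and the YY1 letters.
Sdhd: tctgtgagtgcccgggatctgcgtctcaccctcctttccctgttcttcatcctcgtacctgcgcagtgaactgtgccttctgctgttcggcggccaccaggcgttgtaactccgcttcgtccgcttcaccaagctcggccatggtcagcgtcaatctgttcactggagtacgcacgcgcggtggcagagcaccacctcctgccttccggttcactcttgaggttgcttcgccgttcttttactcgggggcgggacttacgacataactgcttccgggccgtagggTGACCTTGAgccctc
Atp5f1a: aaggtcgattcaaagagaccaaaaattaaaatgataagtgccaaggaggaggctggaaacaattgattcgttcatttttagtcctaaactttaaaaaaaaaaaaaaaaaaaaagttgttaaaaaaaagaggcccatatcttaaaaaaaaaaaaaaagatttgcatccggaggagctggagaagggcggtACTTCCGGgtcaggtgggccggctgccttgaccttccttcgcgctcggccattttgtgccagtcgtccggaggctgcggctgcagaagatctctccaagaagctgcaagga
Ndufs7: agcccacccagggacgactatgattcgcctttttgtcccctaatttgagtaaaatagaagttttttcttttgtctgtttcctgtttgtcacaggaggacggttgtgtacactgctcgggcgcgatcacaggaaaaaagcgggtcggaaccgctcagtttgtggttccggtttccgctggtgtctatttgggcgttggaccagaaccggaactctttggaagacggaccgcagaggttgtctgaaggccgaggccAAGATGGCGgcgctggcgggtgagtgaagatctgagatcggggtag
Uqcrc1: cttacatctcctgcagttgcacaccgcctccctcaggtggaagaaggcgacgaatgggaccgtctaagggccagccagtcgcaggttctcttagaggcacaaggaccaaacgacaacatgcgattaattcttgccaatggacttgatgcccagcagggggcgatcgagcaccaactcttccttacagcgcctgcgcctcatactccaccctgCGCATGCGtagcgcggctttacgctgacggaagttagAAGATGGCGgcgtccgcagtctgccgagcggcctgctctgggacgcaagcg

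Under fibroblast medium, the 24 subunit genes with a match had a median difference of -0.30 and the 45 without had -0.32. For YY1 letters the medians were -0.24 with and -0.32 without, for ETS letters -0.34 with and -0.30 without, and for NRF1 letters -0.29 with and -0.31 without. The 2 genes with ERR letters had a median of -0.51 and the rest -0.31.

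Complex I, the NADH dehydrogenase and entry point for most electrons, was represented by 34 genes. Under fibroblast medium 33 of 34 were below 0, against 43.1% of all named genes, with a median of -0.31. At least 1.5-fold lower were 5, against 6.97%. The 3 lowest were core subunits of the matrix arm, which carries electrons to coenzyme Q. Ndufs3, a core subunit near the quinone site, was at 0.18 on the control array, 0.00 on the myoblast array and -0.57 on the fibroblast array, a difference of -0.75 from control (1.68-fold). Ndufs8, an iron-sulfur subunit of the electron path, was at 0.18 on control, 0.00 on myoblast and -0.52 on fibroblast, a difference of -0.70. Ndufs1, the large iron-sulfur subunit, was at 0.14, 0.00 and -0.48 in the same order, a difference of -0.63. In all 3 the fibroblast array stood well below the others, which were close together.

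The core subunits of complex I described here numbered 6. Grouped after their values were seen, they had differences between fibroblast medium and control from -0.75 to -0.52, with a median of -0.61. Ndufv1, which binds the flavin, was at 0.14 on control, 0.00 on myoblast and -0.45 on fibroblast. Ndufv2, its iron-sulfur partner, was at 0.03 on control, 0.00 on myoblast and -0.55 on fibroblast, a difference of -0.58 that falls just short of 1.5-fold, while Ndufv1 at -0.59 just passes it. Ndufs7, which holds the last cluster before coenzyme Q, differed by -0.52. All 6 were at least 1.2-fold lower, against 17.5% of all genes.

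The 28 accessory subunits of complex I, which surround the core, spread more widely, from -0.61 to 0.05 with a median of -0.28. Ndufb11, a subunit of the membrane arm, was at 0.14 on control, 0.00 on myoblast and -0.47 on fibroblast, a difference of -0.61 and the largest among them. Ndufa8 (-0.53), Ndufb3 (-0.52), Ndufb7 (-0.52) and Ndufa3 (-0.48) followed. At the other end Ndufc1 and Ndufa1 were both at -0.09, and Ndufa7 was at 0.05. The value for Ndufa7 is a mean of 2 probe sets that disagreed, at -0.15 and 0.24. Ndufa9, at -0.29, is the mean of 2 probe sets, 1 at -0.59 and 1 with no value on any array, read as 0. Ndufv3, at -0.27, is the mean of probe sets at -0.52 and -0.01. Ndufab1, the mitochondrial acyl carrier protein, was at -0.27, and Ndufs4, a subunit of the matrix arm, at -0.25. The accessory genes thus overlapped the core genes at their lower end.

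Under myoblast medium, 30 of the 34 complex I genes were below 0, against 40.2% of all named genes, with a median of -0.09. None differed by 1.2-fold in either direction, while 11.0% of all genes were that much lower and 12.3% higher. The complex I differences ran from -0.24 for Ndufb4 to 0.07 for Ndufa6. Core subunits had a median of -0.14 and accessory subunits of -0.08. Between the conditioned media, the 6 core subunits were higher in myoblast medium by 0.44 to 0.57, and the accessory subunits had a median of 0.18.

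The complex I assembly factors with Ndufaf symbols lay on the other side of control from the subunits in myoblast medium. All 6 of these were above control there, with a median of 0.20, against 39.0% of all genes above 0. The added control transcripts had a larger median of the same sign in this comparison, at 0.28. Whether an offset of 1 array contributed was not tested. Ndufaf3 was at 0.00 on control, 0.37 on myoblast and -0.07 on fibroblast. Ndufaf4, its partner in an early step of assembly, was at 0.00 on control, 0.36 on myoblast and -0.23 on fibroblast, and the gap of 0.60 between the conditioned media passed 1.5-fold. Ndufaf7, a methyltransferase, was higher by 0.23 in myoblast medium, Ndufaf5 by 0.17, Ndufaf1 by 0.12 and Ndufaf8 by 0.10. Ndufaf1, Ndufaf5 and 1 of 2 Ndufaf7 probe sets had a value on the myoblast array alone. Their control and fibroblast values are blanks read as 0. Under fibroblast medium all 6 genes ranged from -0.23 to 0.00 with a median of -0.05. For each of the 6, the myoblast array was the highest of the 3. Assembly factors of complex I with other symbols lay on both sides of control in myoblast medium, with Acad9 at -0.16, Nubpl at -0.08 and Tmem126b at -0.04 and with Timmdc1 at 0.36, Ecsit at 0.26 and Foxred1 at 0.13, all 6 named after their values were seen.

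Complex II, succinate dehydrogenase, belongs both to the citric acid cycle and to the respiratory chain. All 4 of its genes were lower under fibroblast medium, against 43.1% of all named genes, with a median of -0.61, the lowest of the 5 complexes. Sdha, the flavoprotein that oxidises succinate, was at 0.16 on control, 0.00 on myoblast and -0.77 on fibroblast, a difference of -0.93 (1.90-fold) and the largest of the whole group. It lay at percentile 2.99 of all named genes. Sdhd, a membrane anchor, was at 0.24 on control, 0.00 on myoblast and -0.49 on fibroblast, as the mean of 2 probe sets that differed from control by -0.89 and -0.56. Sdhb, the iron-sulfur subunit, was at 0.00 on control, 0.07 on myoblast and -0.49 on fibroblast. Sdhc, the second anchor, differed least, at -0.35. Under myoblast medium Sdhd was at -0.24, Sdha at -0.16, Sdhc at -0.12 and Sdhb at 0.07.

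Complex III, the cytochrome bc1 complex, hands electrons from coenzyme Q to cytochrome c. All 8 genes measured were below control under fibroblast medium, against 43.1% of all named genes, with a median of -0.41. Uqcrc2, a structural core protein, was at 0.07 on control, 0.00 on myoblast and -0.69 on fibroblast, a difference of -0.76, and its 2 probe sets were at -0.90 and -0.63. Cyc1, the cytochrome c1 gene, was at 0.00 on control, 0.05 on myoblast and -0.51 on fibroblast. Uqcr11, a small subunit, was at 0.23 on control, 0.00 on myoblast and -0.24 on fibroblast. Of the remaining genes, Uqcrc1 was at -0.44 and Uqcrfs1, the Rieske iron-sulfur protein, at -0.39. The small subunit genes Uqcrh (-0.26), Uqcr10 (-0.15) and Uqcrq (-0.11) differed least. Under myoblast medium the complex III genes stayed within -0.23 (Uqcr11) and 0.05 (Cyc1).

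Cytochrome oxidase, complex IV, had the smallest share of genes below control under fibroblast medium of the 5 complexes. Of 16 genes, 13 were below 0 under fibroblast medium, against 43.1% of all named genes, with a median of -0.30. None was 1.5-fold lower, against 6.97%, and 3 were above 0, against 41.0%. Those 3 were the ubiquitous Cox4i1 at 0.12, the muscle isoform Cox6a2 at 0.12 and Cox5a at 0.05. A probe set shared by Cox5a and another locus, not counted here, was at -0.22 in this comparison. Between the conditioned media the median was 0.10, the smallest of the 5 complexes. Above 0 were 11 genes, against 44.9% of all genes, and 5 were below, against 39.3%.

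The isoforms of complex IV that heart and skeletal muscle use did not move as 1 group. Cox7a1, the muscle form of subunit VIIa, was at 0.00 on control, 0.31 on myoblast and -0.58 on fibroblast, and its gap of 0.89 between the conditioned media was the largest of the whole group. Cox8b, the muscle form of subunit VIII, was at 0.44 on control, -0.24 on myoblast and 0.00 on fibroblast, and was the single gene past 1.5-fold under myoblast medium, at -0.68. Cox6a2, the muscle form of subunit VIa, was at -0.07 on control, 0.00 on myoblast and 0.05 on fibroblast. The first had its highest value with myoblast medium, the second in control and the third with fibroblast medium. Of their more widespread counterparts, Cox8a was at 0.20 on control, 0.00 on myoblast and -0.10 on fibroblast, and Cox6a1 was at 0.04, 0.00 and -0.20. Cox7a2, the counterpart of Cox7a1, was covered by a probe set shared with Cox7a2l2, which was at 0.13, 0.00 and -0.09. Cox7a2l, the related factor that joins complexes into supercomplexes, was at 0.02, 0.00 and -0.14. All 4 had the control array highest and the fibroblast array lowest.

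Among the other isoforms, Cox4i2, which oxygen regulates, was at 0.00 on control, 0.22 on myoblast and -0.31 on fibroblast, while Cox4i1 was at 0.00, -0.09 and 0.12. The order of the arrays was therefore opposite for the paralogues. Cox6b2, known as a testis form, was at 0.54 on control, 0.00 on myoblast and -0.02 on fibroblast, and Cox7b2, also a testis form, at 0.23, 0.00 and -0.07. Their widespread counterparts Cox6b1 and Cox7b were at 0.11, 0.00 and -0.21 and at 0.15, -0.02 and 0.00, so control was highest for all 4. The Ndufa4 gene, whose product is a subunit of complex IV despite its name, was at 0.19 on control, 0.00 on myoblast and -0.17 on fibroblast, and its paralogue Ndufa4l2, induced by low oxygen, at 0.00, 0.05 and -0.13. Cox5a, a nuclear-encoded subunit with no second isoform, was at -0.05 on control, 0.41 on myoblast and 0.00 on fibroblast, and its difference of 0.46 in myoblast medium was the largest positive one of the group. A probe set shared by Cox5a and another locus was at 0.02 in the same comparison, so the value rests on 1 probe set.

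**Figure D2:**
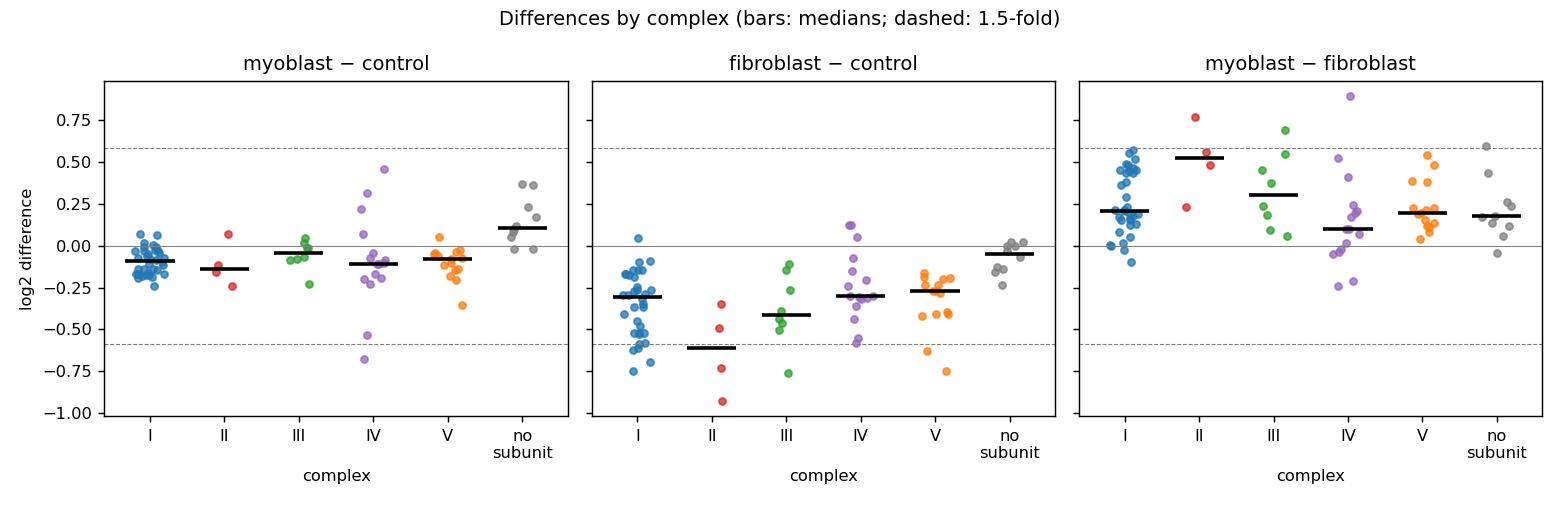
Log2 difference (vertical axis) of each gene by complex (horizontal axis) in the 3 comparisons, with bars at the medians and dashed lines at 1.5-fold. In the comparison of fibroblast medium with control, complex II had the lowest median (-0.61) and complex V the highest of the 5 complexes (-0.27); in complex IV the points spread most under myoblast medium, from -0.68 to 0.46.

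ATP synthase, complex V, lay below control almost throughout. All 15 genes were below 0 under fibroblast medium, against 43.1% of all named genes, with a median of -0.27. Under myoblast medium 14 of 15 were below 0, against 40.2%, with a median of -0.08. The 5 genes of the catalytic head had a median of -0.41 under fibroblast medium and the 10 of the stalks and membrane part a median of -0.25. Atp5f1a, the alpha subunit of the head, was at 0.14 on control, 0.00 on myoblast and -0.49 on fibroblast, a difference of -0.63. Atp5f1b, the catalytic beta subunit, was at 0.18 on control, 0.00 on myoblast and -0.23 on fibroblast. Atp5f1c, the rotating gamma subunit, was at -0.41, and the small head subunits Atp5f1e and Atp5f1d were at -0.27 and -0.16.

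In the membrane part, Atp5mpl, a small proteolipid, was at 0.20 on control, 0.00 on myoblast and -0.54 on fibroblast, a difference of -0.75 (1.68-fold) that was the largest of complex V. Atp5me, subunit e, was at 0.35 on control, 0.00 on myoblast and -0.04 on fibroblast. It was the lowest of complex V in myoblast medium, at -0.35, with probe sets at -0.49 and -0.22. Atp5pb, the peripheral stalk subunit b, was at 0.04 on control, 0.00 on myoblast and -0.38 on fibroblast. Atp5mc3, 1 of 3 genes for the subunit c of the rotor ring, was at 0.06 on control, 0.00 on myoblast and -0.22 on fibroblast. Atp5po, which ties the stalk to the head, differed by -0.20. The Atp5po value is the mean of 2 probe sets, 1 at -0.39 and 1 with no value on any array, read as 0. The others of this part (Atp5mf, Atp5mg, Atp5mk, Atp5pd and Atp5pf) lay between -0.27 and -0.19. The inhibitor gene Atp5if1, which is no subunit, was at 0.02.

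Genes that fall under the same symbols but share their probe sets with a relative or pseudogene were kept apart, and 9 probe sets were of this kind. For the subunit c genes, the probe set of Atp5mc1 and Atp5mc1l1 was at 0.13 on control, 0.00 on myoblast and -0.81 on fibroblast, a difference of -0.94 from control. That of Atp5mc2 and Atp5mc2l1 was at 0.21, 0.00 and -0.33, a difference of -0.54. Both probe sets for Cycs and its copies were above control with myoblast medium, at 0.13 and 0.17, and below it with fibroblast medium, at -0.24 and -0.40. The probe set of Ndufa10 and Ndufa10l1 was at -0.62, that of Uqcrb and Uqcrbl1 at -0.38, and that of Ndufs5 and a pseudogene at -0.13. All 9 were below control under fibroblast medium.

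**Figure D3:**
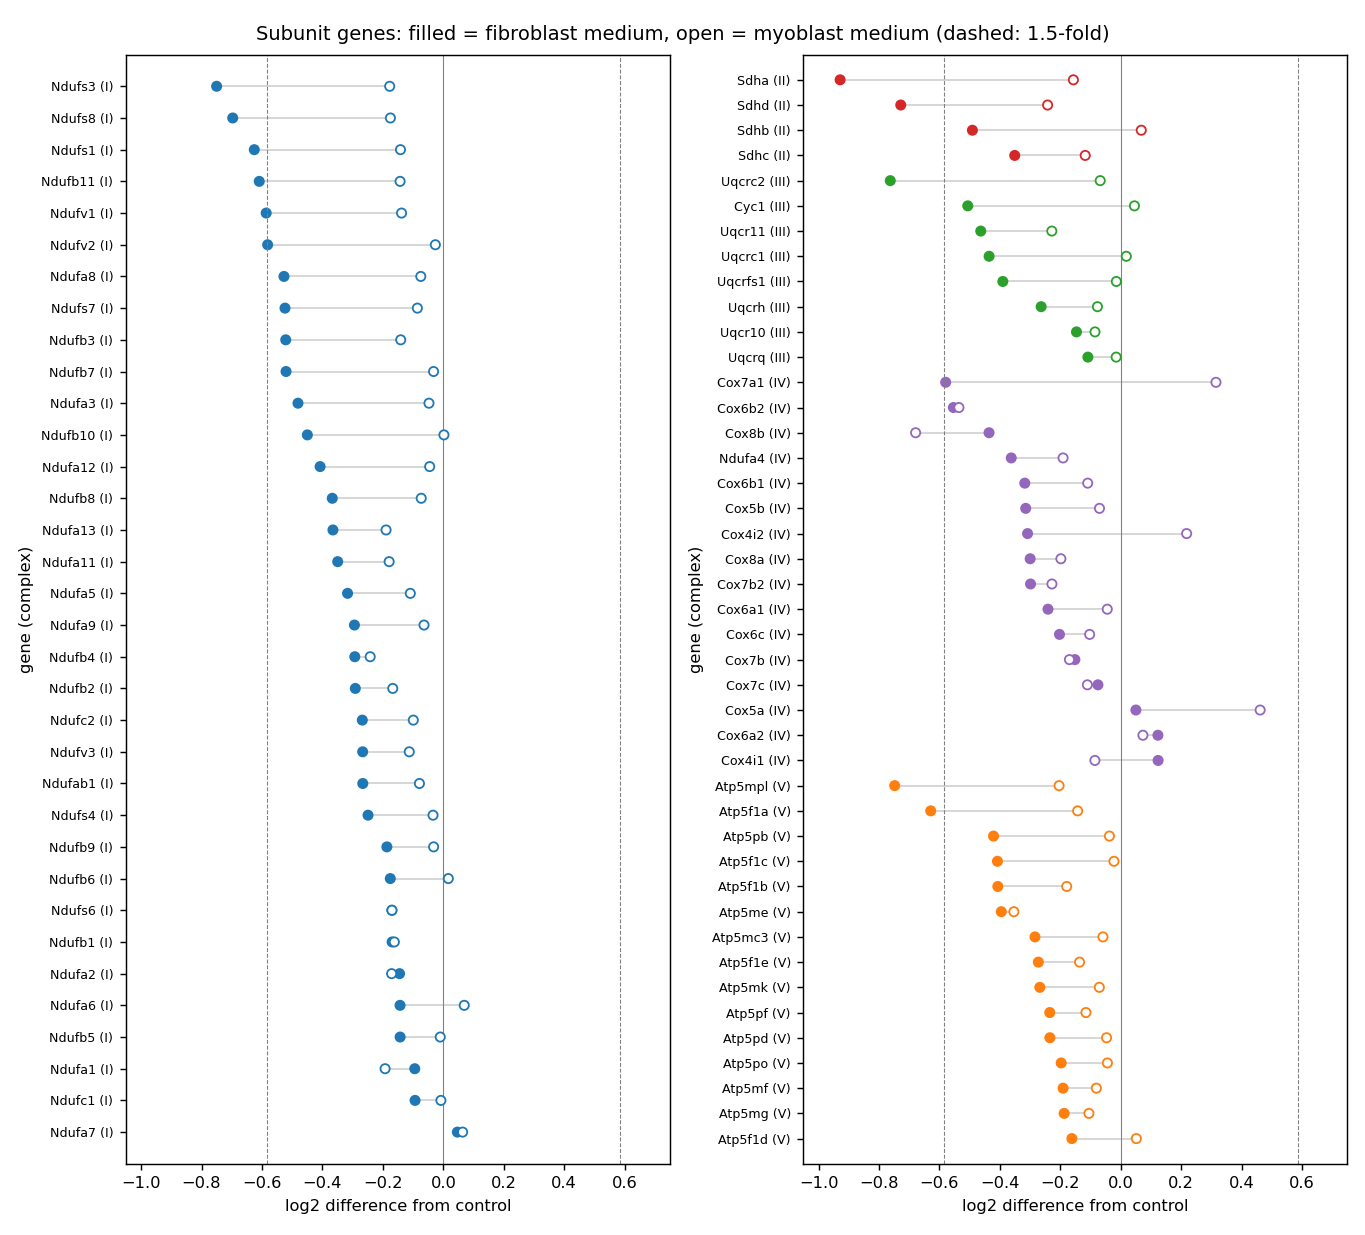
Log2 difference from control (horizontal axis) for each of the 77 subunit genes (vertical axis, complex in brackets), with filled circles for fibroblast medium, open circles for myoblast medium and dashed lines at 1.5-fold. Most open circles lie between 0 and the filled circle of the same gene; Cox8b, Cox5a and Cox7a1 are among the exceptions.

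Parts of the chain encoded in mitochondrial DNA had 2 named probe sets. COX1, a catalytic subunit of cytochrome oxidase, was at 0.02 on control, 0.00 on myoblast and -0.50 on fibroblast. COX2, the subunit that receives electrons from cytochrome c, was at 0.07 on control, 0.00 on myoblast and -0.10 on fibroblast. The arrays stood in the same order for both as for most nuclear subunits.

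The enzymes that feed the chain were also lower under fibroblast medium. All 16 measured genes of pyruvate dehydrogenase and the citric acid cycle were below 0, with a median of -0.40, and 4 of them passed 1.5-fold; over all genes the shares were 43.1% and 6.97%. Idh2, the NADP-dependent isocitrate dehydrogenase, was at -1.09, the succinate-CoA ligase genes Suclg1 at -0.95 and Suclg2 at -0.71, and Idh3g at -0.71. In myoblast medium this list leaned the other way from the subunit genes, with 12 of 16 above 0 (39.0% of all genes were) and a median of 0.06. The added control transcripts were also above control there, with a median of 0.28. The subunits of pyruvate dehydrogenase Pdhx and Pdha1 were higher there by 0.42 and 0.37, pyruvate carboxylase (Pc) by 0.37 and Idh3a by 0.34.

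Of 19 genes for coenzyme Q synthesis and for enzymes that pass electrons to it, 16 were below 0 under fibroblast medium. Their median was -0.36, and 43.1% of all genes were below 0. Etfdh, which links fatty acid oxidation to coenzyme Q, was at -1.19 and Etfb, a subunit of its electron donor, at -0.76. Sqor, the sulfide oxidising enzyme, was higher by 1.44 and Coq10b by 0.72. In myoblast medium the median was 0.00, with Coq8a at -1.23, Coq10b at 0.88, Dhodh at 0.43 and Coq5 at 0.36.

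Among 15 genes that move ATP, phosphate and creatine phosphate, Atp5if1 among them, 10 were below 0 under fibroblast medium. Their median was -0.25, and 43.1% of all genes were below 0. Ckmt2, the mitochondrial creatine kinase of striated muscle, was at -1.74. The outer membrane channel genes Vdac1, Vdac3 and Vdac2 were at -0.88, -0.52 and -0.48. In myoblast medium Ckmt2 was at 0.46 and the uncoupling protein gene Ucp2 at -0.47.

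Among 39 assembly factor genes of complexes I to V that are not in the group, 30 were below 0 under fibroblast medium (43.1% of all genes were), with a median of -0.18, and 3 passed 1.5-fold downward (6.97% of all genes did). Cox15, needed for the haem of cytochrome oxidase, was lower by at least 2-fold, and Lrpprc, which stabilises mitochondrial messenger RNA, and Oxa1l, an inner membrane insertase, were both at -0.66. Ecsit, which helps to assemble complex I, was at -0.54. Under myoblast medium 20 were above 0 and 17 below, with a median of 0.01. The complex III assembly genes Lyrm7 (0.66) and Bcs1l (0.39), the cytochrome oxidase assembly gene Cox18 (0.48) and Higd1a (0.52) were the highest.

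The regulators of mitochondrial gene expression did not share a direction. Of 21, 13 were below 0 under fibroblast medium (43.1% of all genes were) and the median was -0.06. Perm1, a muscle regulator of oxidative genes, was at -1.73 and the coactivator Ppargc1a (PGC-1alpha) at -1.07, while the nuclear receptor Esrrg was higher by 0.68. The mitochondrial RNA polymerase gene Polrmt was at -0.54. Of the other factors whose letters were searched, named after their values were seen, Nrf1 was at -0.06, Gabpa at 0.23, Yy1 at 0.20, Esrra at 0.00 and Esrrb at -0.10. In myoblast medium the DNA polymerase subunit Polg2 was at 0.57, Tfb1m at 0.44, Polrmt at -0.32 and Ppargc1a at -0.27.

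Markers of cell types differed between the same arrays. Under fibroblast medium, 9 of 17 cardiomyocyte markers passed 1.5-fold downward and 2 upward (median -0.73, range -2.30 to 1.81). Of 12 macrophage markers, 11 passed it upward (median 2.04, range 0.08 to 5.41), and of 11 endothelial markers 8 passed it downward and 1 upward (median -2.60, range -5.65 to 0.83). Over all named genes, 6.97% passed it downward and 9.09% upward. The 12 fibroblast markers had a median of 0.09 and the 9 skeletal muscle markers of -0.09. Under myoblast medium the medians were -0.16 for cardiomyocyte, -0.48 for macrophage, -0.84 for endothelial, -0.10 for fibroblast and -0.03 for skeletal muscle markers. In RNA from whole cultures, fewer cells of a type and less RNA per cell cannot be told apart, and the part of these markers in the respiratory gene differences was not tested.

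**Figure D4:**
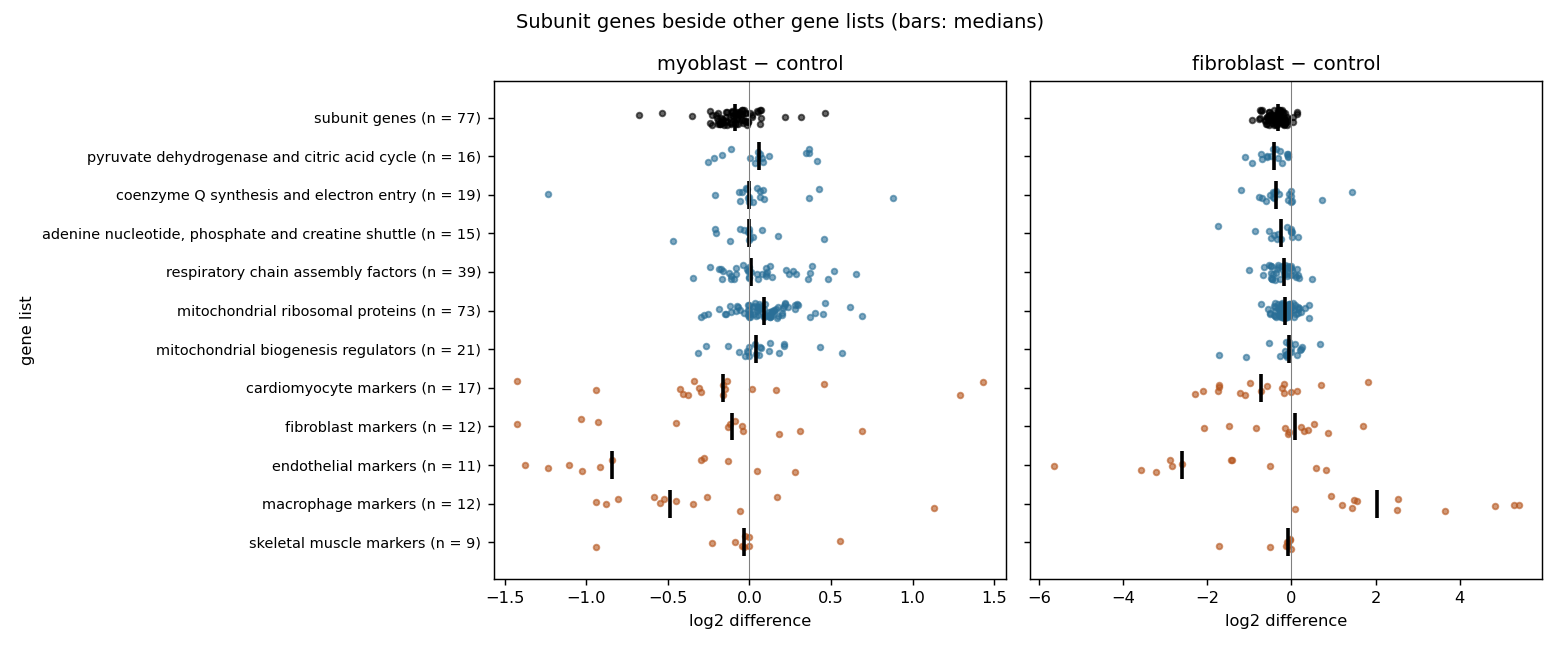
Log2 differences from control (horizontal axis, of different range in the 2 panels) for the 77 subunit genes and for other lists (vertical axis), with 1 point per gene and bars at the medians. Under fibroblast medium the subunit genes (median -0.31) form a narrow cloud beside the wide clouds of the cardiomyocyte, endothelial and macrophage markers; under myoblast medium the subunit genes lie at -0.09 and mitochondrial ribosomal protein genes at 0.09.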

How the data were processed

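Total RNA of 3 cultures was biotin-labelled with the Affymetrix 3' IVT Express kit, per the labels' protocols. The submitters' processing notes name RMA without a program or settings. The deposited values, read as log2 on that basis, are centred per probe set, as the values show: of 31099 probe sets, 17117 had 2 values (1 positive, 1 negative), 8002 had 1, 5980 had 0 and 0 had 3. Blanks were read as 0, the centred median, so arrays that were blank together were treated as tied. The platform annotation gave a single symbol to 20832 probe sets and several to 436; 9831 were unnamed here. A gene's value is the mean of its singly named probe sets (9 of the 87 genes have several), updating symbols through RefSeq (GRCr8) changed 0 of the 97 members' symbols, and differences between arrays were counted past 1.2-, 1.5- and 2-fold.

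No test between conditions was run, since each has 1 array. The members and lists were chosen with earlier results of these data known. Values on all 3 arrays are printed for the 3 members of each complex with the largest difference in any comparison, for paralogue sets and for members past 1.5-fold; other lists have at most 4 named genes with the largest differences in the comparison described, apart from those said to be chosen after their values were seen. The counting step, tested on simulated data for fibroblast medium against control over 14218 genes, recovered 199 of 200 genes shifted 2-fold at the 1.5-fold threshold, with 2 others counted. In that simulation every probe set had 2 values and the shift was larger than any difference of the group. It checks the counting step only and does not measure errors in differences of the size reported here. Python 3.11.15, NumPy 2.4.6, pandas 2.3.3 and Matplotlib 3.10.9 were used.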

Additional observations from a re-analysis of the deposited data

How the results depend on the processing

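Alternatives covered the median or the widest probe set of a gene, probe sets counted singly, no cross-hybridising probe sets, only probe sets with 2 values, updated symbols, subunits only, no testis and muscle isoforms, arrays centred on the median of their values, and other fold thresholds. Of 255 recomputed values, 240 stayed within 1.5 times (counts) or 0.05 (log2 medians) of the value reported, and none reversed. Part of these values could not move, so the count overstates how stable the results are. Updating symbols changed 0 members' symbols. The testis and muscle isoforms left out all belong to complex IV, so the medians of complexes I, II, III and V were fixed there. At 1.2-fold, 3 genes of the group were lower and 4 higher with myoblast medium than control, 51 were lower with fibroblast medium, and 31 were higher with myoblast than fibroblast medium; at 2-fold all these counts of lower or higher genes were 0. Without testis and muscle isoforms, 0 genes were 1.5-fold lower with myoblast medium, and the complex IV medians were -0.24 for fibroblast medium minus control and 0.17 between the conditioned media. With centred arrays, 6 genes instead of 10 were 1.5-fold lower with fibroblast medium. With the widest probe set, the medians for fibroblast medium minus control were -0.36 in complex I and -0.69 in complex II, and the complex II median between the conditioned media was 0.60. With probe sets counted singly, the complex III median between the conditioned media was 0.38. Signal over background is unknown in centred values.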

Other observations

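Mitochondrial ribosomes, which translate the subunits encoded in mitochondrial DNA, showed a further contrast between the media. Of 73 measured genes for mitochondrial ribosomal proteins, 54 were above control with myoblast medium, against 39.0% of all genes, with a median of 0.09. The largest were Mrps6 at 0.69 and Mrps18b at 0.62, then Mrps34 at 0.46 and Mrpl45 at 0.45. The 2 genes at least 1.5-fold higher are a smaller share than the 3.77% of all genes. With fibroblast medium 59 of 73 were below control, against 43.1% of all genes, with a median of -0.15. Mrpl15 was lowest at -0.73, followed by Mrps5 at -0.57, Mrps23 at -0.51 and Mrpl23 at -0.50. With myoblast medium the list therefore lay on the other side of control from the respiratory subunit genes, whose median was -0.09. The added control transcripts had a median of 0.28 in that comparison, and whether an offset of 1 array contributed was not tested.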
